A study of Mus musculus with 12 samples.

Results

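The response of mouse cells to a treatment was compared between cells with and without the transcription factors Stat5a and Stat5b. The quantity described is a difference of responses, (knockout treated minus knockout untreated) minus (control treated minus control untreated) in log2 units, taken within each of 3 array dates. It used 12 arrays of the 12 in the series and was fitted for 11815 genes. Control and knockout cells were each measured with and without treatment, which makes 4 groups of 3 arrays, 1 array of every group on each date. Control mice carried both genes, and knockout mice lacked both in blood cells. The series title names GM-CSF, a cytokine of granulocytes and macrophages. The treatment field of the labels reads with or without GMP, and since titles of untreated arrays carry these letters too, only the word treatment is used. Dose, time, age, strain and the Cre line are not given in the sources used here. The labels do not speak of separate animals or cultures, so every p-value measures only the spread between these samples.

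STAT5A and STAT5B are near-identical transcription factors that cytokine receptors activate through JAK kinases. Once phosphorylated they form dimers, enter the nucleus and bind sites with the core TTCNNNGAA. Among the genes they are known to switch on are Cish and Socs2, whose products damp the same receptors. In myeloid cells GM-CSF also acts through MAP kinase, PI3 kinase and NF-kB pathways, so a response to it can have parts that run through STAT5 and parts that do not.

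The promoters of 3 genes are shown, chosen after their values and matches were seen. Cish and Batf3 had smaller rises without Stat5 in estimate, and Bcl6, a transcriptional repressor, had a larger one and the most matches. Each window runs from 250 bases before to 50 bases after the start site in RefSeq (build GRCm38.p6), and matches to TTCNNNGAA are in capitals. The Cish window is chr9:107296409-107296708 on the plus strand, the Batf3 window chr1:191098164-191098463 on the plus strand, and the Bcl6 window shown, the one with more matches of 2, chr16:23981234-23981533 on the minus strand.
Cish promoter: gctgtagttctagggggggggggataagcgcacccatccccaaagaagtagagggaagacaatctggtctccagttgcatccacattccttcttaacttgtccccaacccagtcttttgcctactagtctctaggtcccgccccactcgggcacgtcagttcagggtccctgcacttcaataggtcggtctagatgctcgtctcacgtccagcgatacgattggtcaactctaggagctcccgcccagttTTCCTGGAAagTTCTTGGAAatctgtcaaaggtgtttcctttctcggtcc
Batf3 promoter: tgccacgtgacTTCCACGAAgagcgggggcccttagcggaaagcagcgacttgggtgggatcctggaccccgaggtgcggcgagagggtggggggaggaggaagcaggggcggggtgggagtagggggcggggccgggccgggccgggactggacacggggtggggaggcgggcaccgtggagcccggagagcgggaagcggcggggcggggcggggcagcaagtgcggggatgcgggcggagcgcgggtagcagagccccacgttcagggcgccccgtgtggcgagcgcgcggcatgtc
Bcl6 promoter: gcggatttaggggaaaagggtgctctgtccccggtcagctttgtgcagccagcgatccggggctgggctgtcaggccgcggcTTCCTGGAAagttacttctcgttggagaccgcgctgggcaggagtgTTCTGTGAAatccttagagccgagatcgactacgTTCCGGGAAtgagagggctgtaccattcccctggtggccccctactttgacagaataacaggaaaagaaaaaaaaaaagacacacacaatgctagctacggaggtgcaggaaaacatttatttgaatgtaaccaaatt
The Cish window held 2 matches, TTCCTGGAA and TTCTTGGAA, which begin at bases 1 and 12 counted from the start site. The Batf3 window held 1 match, TTCCACGAA, which begins at base -239. The Bcl6 window held 3, which begin at bases -168, -122 and -88. RefSeq gives Bcl6 another start site, whose window held 1 match, TTCTCAGAA at base -118. The motif is its own reverse complement, so 1 search covered both strands. Of 32851 promoters of this length, 8.3% held at least 1 match and 0.457% held 2 or more. A match is a description of letters and shows no binding.

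Arrays of date 2 stood apart from those of the other dates. Their 3' to 5' signal ratio of Actb ran from 20.8 to 266, against 1.14 to 2.05 on the other dates, and that of Gapdh from 28.2 to 80.7 against 1.56 to 3.90. The SD of the difference of responses across genes was 1.17 on date 2, 0.53 on date 1 and 0.55 on date 3. The sex of the mice differed between arrays too. The Y-linked Eif2s3y had signals, untreated then treated, of 2169 and 2324 in control and 2182 and 2222 in knockout cells on date 1, 2.98 and 2.97 against 763 and 1802 on date 2, and 777 and 783 against 1833 and 1601 on date 3. The dates thus came from different mice, and on dates 2 and 3 the genotypes also differed in this gene. Xist, expressed from the inactive X, lay at 64.3 to 172 on date 1 and at 5061 to 34538 on the other dates. On date 2 the knockout arrays also differed from each other, with Xist at 17860 untreated and 5061 treated and Eif2s3y at 763 and 1802. The knockout response of date 2 may therefore not compare cells of the same mice. The part of sex in the results was not tested. The title of the knockout treated array of date 2 carries another number tag than the other 3 titles of that date. The value without date 2 is therefore given, for the gene or as a count over its list, where a described gene loses an unadjusted p under 0.05 without that date.

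The deletion was visible on the arrays. Stat5a had signals of 1147, 905 and 833 on the control untreated arrays of dates 1 to 3 and 33.0, 101 and 48.1 on the knockout untreated arrays. Stat5b had 1531, 515 and 1313 against 24.0, 48.7 and 51.2. Both stayed apart after treatment, with no overlap between genotypes. Whether the probes lie in the deleted part of each gene is not given in the sources used here. Without treatment these were the 2 genes of 11815 (0.0169%) that passed the threshold between genotypes (limma, Benjamini-Hochberg adjusted p under 0.05). Signals of Mpo, Elane, Prtn3 and Ctsg, enzymes of the primary granules of young granulocytes and monocytes, were at least 6216 on every array. Those of Kit and Cd34, surface markers of progenitors, ran from 623 to 5457 and from 491 to 8313. Kit was lowest on the arrays of date 2. Csf1r ran from 6440 to 40377. Markers of maturing neutrophils were present too, with Ngp at 3077 to 17500, S100a8 at 1547 to 28215 and S100a9 at 195 to 10675. Camp ran from 252 to 5909, Ltf from 278 to 2127 and Mmp8 from 138 to 526. Ptprc, the pan-leukocyte marker CD45, lay between 5911 and 13434. Of dendritic cell markers, the regulators Zbtb46 and Ciita did not exceed 134 on any array and the integrin Itgax did not exceed 356. The receptor Flt3, listed with them, was brighter, from 155 to 1099. Itgax had log2 responses of 0.84 and 1.08 that did not pass, and Cd74, the invariant chain of antigen presentation, rose in both genotypes, by 1.83 and 1.30.

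Treatment moved many genes in both genotypes, but no gene's difference of responses passed the threshold. Treatment raised 497 genes (4.21% of those tested) and lowered 303 (2.56%) in control cells, and it raised 795 (6.73%) and lowered 526 (4.45%) in knockout cells. Of these, 589 passed in both genotypes in 1 direction, 387 as rises and 202 as falls, and 0 passed in opposite directions. The difference of responses passed in 0 of 11815 genes (0%) by limma, with a smallest adjusted p of 0.484, for Cish. Without adjustment, 291 genes had a p under 0.05, 155 below 0 (1.31%) and 136 above 0 (1.15%), and 274 of the 291 (2.32% of genes tested) had 1 sign on all 3 dates. The median half-width of the 95% interval of the difference was 0.911 log2 units, so a gene needed a large difference to stand out in this design. With array quality weights, which give noisy arrays less say, 1 gene passed, Cish. The genes below are therefore a ranked description, in 3 classes.

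**Figure D1:**
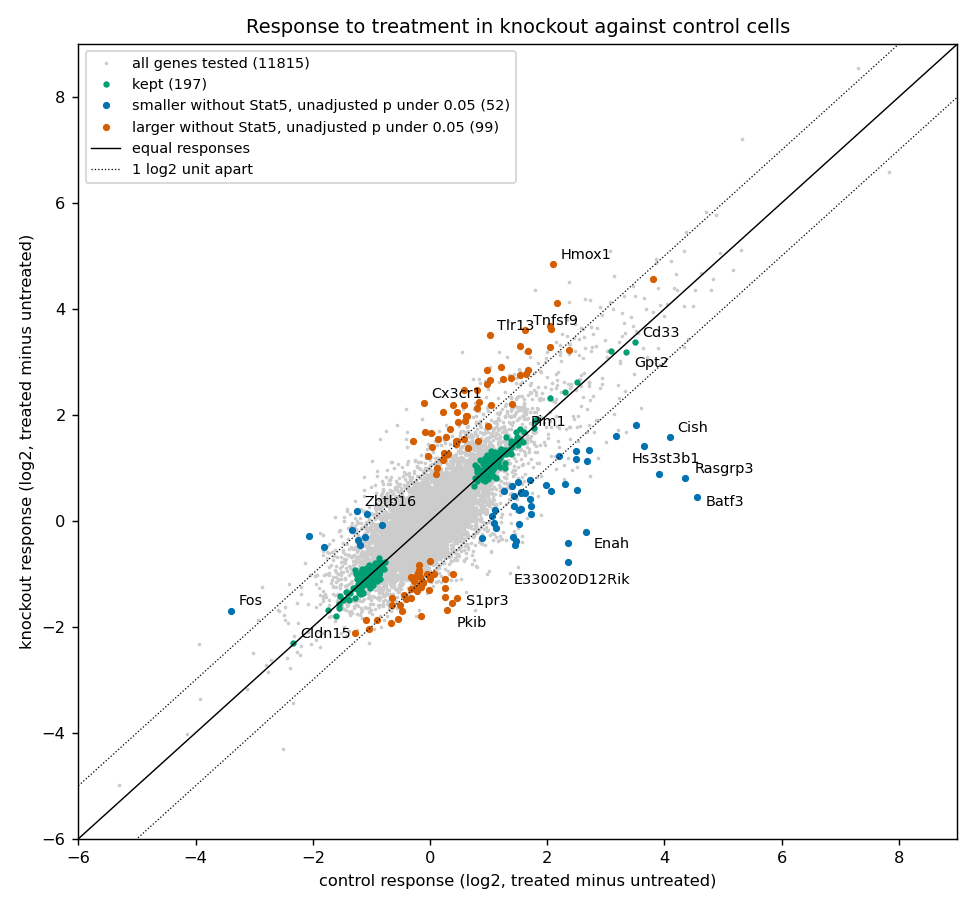
Response to treatment in knockout cells (vertical axis) against control cells (horizontal axis), both in log2 units, for 11815 genes. The 197 kept genes lie along the line of equal responses, Cish, Batf3 and Rasgrp3 far below it, and Hmox1, Tlr13 and Cx3cr1 above it.

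The feedback inhibitor Cish had the smallest p of all genes for the difference of responses. Cish, an SH2 protein that damps JAK-STAT receptors, had signals of 188, 512 and 252 on control untreated arrays and 4853, 5294 and 5461 on control treated arrays. In knockout cells it had 243, 372 and 245 without and 799, 1017 and 792 with treatment. The treated groups did not overlap, and the untreated groups did. Cish rose 17.2-fold in control cells (log2 change 4.10, limma adjusted p 0.000112) and 2.98-fold in knockout cells (1.58, adjusted p 0.00551). The difference of responses was -2.53 ± 0.36 (SE, 3 dates), with date values of -2.93, -1.92 and -2.73 and a limma p of 4.1e-05 before and 0.484 after adjustment. It was -2.84 with array quality weights (adjusted p 0.0104) and -2.83 without date 2 (adjusted p 0.126). A rise of Cish thus remained in knockout cells, at a lower level.

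Socs2, another member of that SH2 inhibitor family, had 3 probe sets that passed the filter on dim signals, and they disagreed. The set with the largest control response had signals of 9.80, 26.8 and 3.86 on control untreated arrays and 470, 1445 and 718 on control treated arrays. On knockout arrays it had 21.4, 39.1 and 5.36 without and 34.9, 26.2 and 26.1 with treatment. Only the control treated arrays were bright, and they did not overlap any other group. This set passed the filter of 70.5 through those arrays alone. Its other signals, from 3.86 to 39.1, lay around the constant of 13 added before the logarithm. The fold and adjusted p of this set are therefore a description and are not read as a test. Its response was 5.01 in control and 0.39 in knockout cells, a difference of -4.63 ± 0.51 (SE, 3 dates; limma adjusted p 0.0713 over 21363 probe sets). Another set gave 4.44 and 0.79, a difference of -3.65 ± 0.47 (adjusted p 0.152). The set with the highest mean, which stood for the gene by the rule used throughout, gave -0.69 ± 0.51, with responses of 0.55 and -0.14 that did not pass. Socs3, an inhibitor mainly of STAT3-type receptors, had a difference of -0.96 ± 1.47, an interval too wide to place it.

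**Figure D2:**
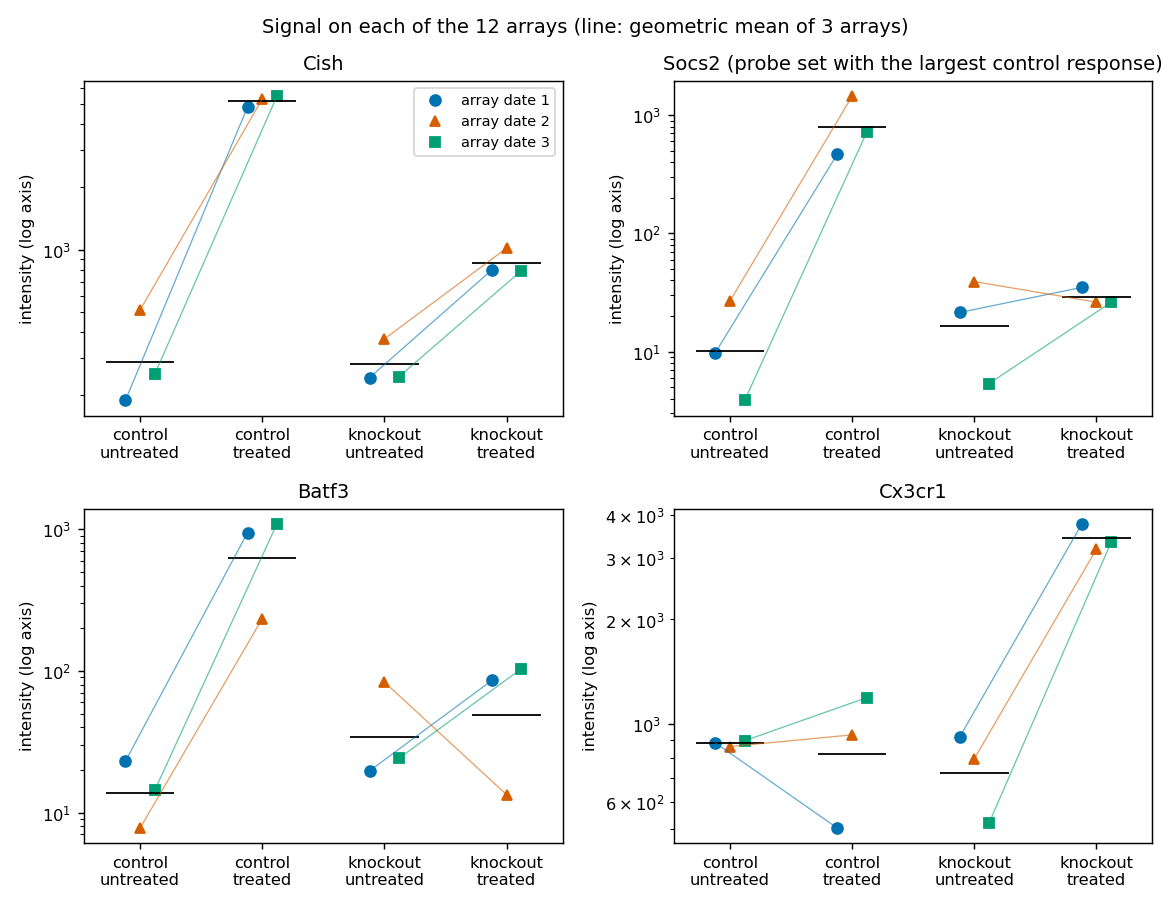
Signal intensity (log axis) on each of the 12 arrays for Cish, Socs2, Batf3 and Cx3cr1, with marks by array date, a thin line joining untreated to treated on each date and a bar at the geometric mean of 3 arrays. Control treated arrays stand out for the first 3 genes, and knockout treated arrays for Cx3cr1.

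Batf3, an AP-1 type transcription factor of dendritic cell development, had the largest difference in estimate among the rises that were smaller without Stat5. This ranking uses the probe set that stood for each gene, and so leaves out the Socs2 set with the larger difference. Its control signals were 23.0, 7.75 and 14.3 without and 949, 234 and 1092 with treatment. Knockout signals were 19.7, 83.5 and 24.2 without and 85.8, 13.4 and 104 with treatment. Batf3 rose 23.4-fold in control cells (log2 change 4.55, limma adjusted p 0.00406), and its knockout response of 0.46 did not pass (adjusted p 0.703). The difference was -4.09 ± 0.91 (SE, 3 dates), at -3.15, -5.44 and -3.69 by date, and -3.42 without date 2 (adjusted p 0.126). With treatment the knockout signal was lower on date 2 and higher on the other dates. The list of dendritic cell and antigen presentation genes had 26 tested, of which treatment raised 9 in control cells (4.21% of all genes) and 8 in knockout cells (6.73%). For the difference, 2 lay below 0 at an unadjusted p under 0.05 (1.31%), Batf3 and the lectin Clec10a, and 0 above, at a median of 0.04 and -0.24 without date 2. Irf4, another regulator of dendritic cells, rose in both genotypes, by 2.68 and 2.12. Irf8 fell by 1.39 in control cells, with a knockout response of -0.64 that did not pass and a difference of 0.76 ± 0.44. In bulk RNA, fewer cells of a type and less RNA per cell cannot be told apart.

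A class of 52 genes had a control response past the threshold, a smaller response without Stat5 and, for the difference, an unadjusted p under 0.05 with 1 sign on all dates. This rule was set after values were seen and uses the difference itself, so the members are described and not tested. Of the 52, 42 were rises and 10 falls, and 7 also passed in knockout cells in the same direction. The 3 control and 3 knockout responses did not overlap in 43 of the 52. Across all genes this held for 8.29%, and since the rule used the same contrast nothing is read from it. Date 2 gave the largest of the 3 differences in 32 of the 52, and without date 2 all 52 kept their sign while 38 had an unadjusted p under 0.05.

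Among those rises were signalling, cytoskeletal and matrix genes. Rasgrp3, an exchange factor that activates Ras and Rap, had control signals of 2.67, 10.0 and 8.06 without and 125, 860 and 526 with treatment. Its knockout signals were 7.69, 84.9 and 3.82, then 4.42, 166 and 45.4. It rose by 4.35 in control cells, and the difference was -3.55 ± 0.75 (SE, 3 dates). The untreated signals lie near the dim end of the array, which makes this fold uncertain. Hs3st3b1, a heparan sulfate sulfotransferase, went from 47.2, 50.4 and 31.4 to 430, 850 and 1469 in control cells. In knockout cells it went from 31.6, 17.2 and 46.6 to 51.9, 41.6 and 132. The control treated signals all lay above every other array, and the difference was -3.01 ± 0.58. Rasgrp3 and Hs3st3b1 passed the filter on dim signals only with the control treated arrays counted. Enah, an actin regulator, went from 316, 407 and 347 to 985, 4962 and 2563 in control cells and had signals of 70.0 to 329 on all knockout arrays. Its differences by date were close together, -2.87, -2.90 and -2.86.

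Hbegf, an EGF-family growth factor, had control signals of 116, 97.8 and 157 without and 321, 811 and 1186 with treatment. In knockout cells the signals were 121, 107 and 136, then 71.5, 51.7 and 170. Its rise of 2.36 in control cells stood against a knockout response of -0.42 that did not pass. Elovl7, an elongase of fatty acids, went from 417, 356 and 336 to 912, 1256 and 899 in control cells and from 437, 389 and 215 to 280, 338 and 199 in knockout cells. The direction in the knockout was opposite on every date, though the knockout response of -0.31 did not pass. Eps8, an adaptor of receptor tyrosine kinases, rose by 3.64 in control cells, and its knockout response of 1.42 missed the threshold (limma adjusted p 0.0796). Differences of -1.93 for the matrix proteoglycan Vcan, -1.91 for Chn2, which inactivates Rac, and -1.85 for the surface glycoprotein Thy1 leaned on date 2, where they were -3.60, -3.48 and -3.06. Without date 2 they were -1.09 (unadjusted p 0.273), -1.12 and -1.24. The T and NK lineage markers to which Thy1 belongs had 6 of 14 genes on the array past the filter, and the others were too dim to be tested. Their summed signal ran from 8811 to 10122 in control untreated, 3359 to 6000 in control treated, 8847 to 10216 in knockout untreated and 2401 to 7317 in knockout treated arrays. Their part in the Thy1 result was not tested.

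**Figure D3:**
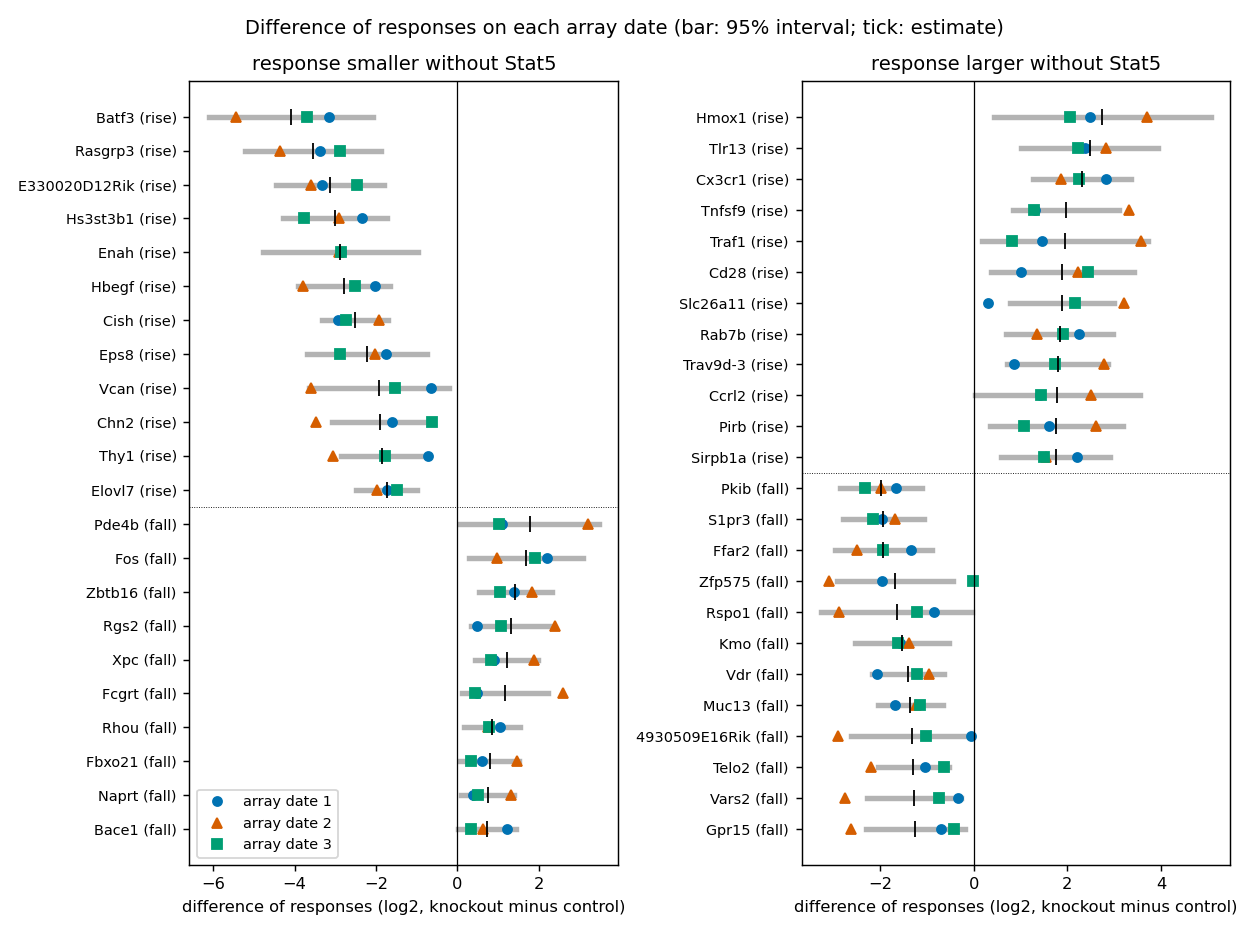
Difference of responses (horizontal axis, log2, knockout minus control) on each array date for the 22 and 24 named genes whose response was smaller (left) or larger (right) without Stat5, with the 95% interval as a grey bar and the estimate as a tick. All dates of a gene lie on 1 side of 0, as the choice of genes required, and date 2 is often the farthest from 0.

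After treatment, 13 genes of 11815 (0.11%) passed between genotypes (9 without date 2), and all 13 were lower in knockout cells. Besides Stat5a and Stat5b they were E330020D12Rik, Hs3st3b1, Hbegf, Cish, Pkib, S1pr3, Ffar2, Elovl7, Muc13, Dcaf1 and 1810065E05Rik. Cish was lower by 2.57 log2 units (limma adjusted p 0.012), Hs3st3b1 by 3.37, Hbegf by 2.79 and Elovl7 by 1.87. Hs3st3b1 passed the filter on dim signals only with the control treated arrays counted, so its place among the 13 is a description and is not read as a test. This comparison shares the treated arrays with the difference of responses and is not separate evidence for it. For 10 of the 11 genes other than Stat5a and Stat5b the untreated estimate lay within 0.36 of 0. The exception, 1810065E05Rik, was lower by 1.22 before and 1.56 after treatment, so its difference of responses was only -0.34 ± 0.32 (SE, 3 dates). E330020D12Rik, an uncharacterised transcript, had control signals of 124, 459 and 217 without and 703, 3940 and 697 with treatment. Its knockout signals were 297, 328 and 223, then 147, 224 and 118, lower with treatment on every date.

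Fewer falls were smaller without Stat5. Fos, an AP-1 subunit and immediate early gene, had control signals of 9622, 32299 and 12413 without and 1159, 1733 and 1617 with treatment. In knockout cells it went from 8845, 30190 and 11901 to 4942, 3204 and 5836. Fos fell in both genotypes, 10.5-fold in control and 3.25-fold in knockout cells, with a difference of 1.69 ± 0.63 (SE, 3 dates). The treated signals did not overlap between genotypes, while the responses did, through date 2. Its relative Fosb fell in both genotypes too, with log2 responses of -5.30 and -4.99 and a difference of 0.31 ± 0.68. Zbtb16, a transcriptional repressor of progenitor cells, fell by 1.25 in control cells and had a knockout response of 0.18 that did not pass. Xpc, a sensor of DNA damage, fell by 1.08 with a knockout response of 0.13. Rgs2, which turns off G protein signals, fell by 1.82, against a knockout response of -0.49, and its difference of 1.32 was 0.78 without date 2 (unadjusted p 0.132). The probe set standing for Pde4b, a cyclic AMP phosphodiesterase, fell by 2.06 in control cells, but 2 other sets of Pde4b had control responses of 0.50 and 1.38, so its direction rests on the choice of probe set. Its difference of 1.78 was 1.06 without date 2.

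A larger class, 99 genes, had a knockout response past the threshold and a larger response without Stat5 by the same rule, 56 as rises and 43 as falls. Of these, 16 also passed in control cells. Responses did not overlap in 82 of the 99 (8.29% of all genes), from which again nothing is read. Date 2 gave the largest of the 3 differences in 70 of the 99. Without date 2 all 99 kept their sign and 46 had an unadjusted p under 0.05. The genes of the smaller and larger classes together had 106 other probe sets past the filter. Of those sets, 83 had a difference in the same direction, 30 of them with an unadjusted p under 0.05. The sizes of both classes depend on which genotype's response had to pass, so genes were also taken by the average of both responses, a choice added after seeing the data. By that average 2818 genes passed in limma, and among them 45 had a smaller and 85 a larger response without Stat5 at an unadjusted p under 0.05. Over the 1449 that rose on average, the median difference was 0.18, at -0.0066, 0.48 and 0.08 on dates 1, 2 and 3, so the tilt towards larger rises in the knockout was mostly that of date 2.

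Cx3cr1, the fractalkine receptor of monocytes, had control signals of 885, 863 and 897 without and 503, 932 and 1193 with treatment. Knockout signals were 919, 797 and 520 without and 3762, 3187 and 3334 with treatment. The knockout treated arrays all lay far above the other 9, at nearly 1 level. Cx3cr1 rose 4.65-fold in knockout cells (log2 change 2.22, limma adjusted p 0.00361), while the control response of -0.09 did not pass. The difference was 2.31 ± 0.47 (SE, 3 dates), at 2.82, 1.87 and 2.24 by date, and 2.53 without date 2. Another, dimmer probe set gave 1.93 ± 0.71. The monocyte and macrophage list, Cx3cr1 included, did not move as 1 block, with 43 of 55 tested, 3 below (1.31% of all genes) and 4 above 0 (1.15%) at an unadjusted p under 0.05. Above 0 with Cx3cr1 were Lyz2, the lysozyme of macrophages (1.40), the lectin Clec4d (0.76) and Fcgrt (1.17). Without date 2 these were 0.75, 0.70 (unadjusted p 0.0956) and 0.46 (unadjusted p 0.169). Below 0 were the lectins Mrc1 (-1.43) and Clec7a (-1.26) and the macrophage marker Adgre1 (-1.32, and -0.83 without date 2). Adgre1 had 781, 737 and 806 on control treated arrays and 483, 235 and 599 on knockout treated arrays, with no overlap. Csf1r, the receptor that defines the lineage, had a difference of -0.11 ± 0.31.

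Genes of heme, pattern recognition and costimulation were among the other larger rises. Hmox1, heme oxygenase, had control signals of 13.7, 11.9 and 13.3 without and 112, 13.6 and 403 with treatment. In knockout cells it went from 21.2, 42.9 and 9.23 to 878, 759 and 1456. It rose by 4.84 in knockout cells, against a control response of 2.10 that did not pass (limma adjusted p 0.12), and the difference was 2.74 ± 1.04 (SE, 3 dates). The control signal was raised on dates 1 and 3 and not on date 2, and without date 2 the difference was 2.27. Tlr13, a receptor for bacterial ribosomal RNA, went from 12.4, 10.6 and 18.4 to 118, 445 and 445 in knockout cells and from 33.1, 10.8 and 46.4 to 32.6, 51.9 and 173 in control cells. Its date differences of 2.38, 2.83 and 2.22 were close together. Hmox1 and Tlr13 passed the filter on dim signals only with the knockout treated arrays counted. Tnfsf9, the ligand of the costimulatory receptor 4-1BB, rose in both genotypes, by 1.63 and 3.60. Traf1, an adaptor of TNF receptors, also rose in both, by 2.16 and 4.11. The differences of both leaned on date 2, at 3.32 for Tnfsf9 and 3.57 for Traf1 against 1.31, 1.30, 1.46 and 0.82 on the other dates. Without date 2 they were 1.30 and 1.14, the latter with an unadjusted p of 0.116. Cd28, Rab7b, Pirb and Ccrl2 rose in knockout cells, by 2.47, 2.06, 3.30 and 2.19, with control responses that did not pass. Of these, Ccrl2 had a difference of 1.43 without date 2, with an unadjusted p of 0.0651.

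Bcl6, whose promoter is shown above, had control signals of 172, 378 and 119 without and 174, 432 and 376 with treatment, and knockout signals of 144, 309 and 136 without and 476, 2027 and 712 with treatment. Bcl6 rose by 2.19 in knockout cells, with a control response of 0.59 that did not pass and a difference of 1.61 ± 0.46 (SE, 3 dates), at 1.62, 2.48 and 0.73 by date. Without date 2 it was 1.17, with a 95% interval from -0.04 to 2.39 and an unadjusted p of 0.0568. The knockout treated arrays were the highest within each date. Nr4a1, an orphan nuclear receptor of the immediate early class, rose by 1.65 in knockout cells, with a control response of 0.02 and a difference of 1.63 ± 0.65.

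Falls that were larger without Stat5 included receptors of lipid and fatty acid ligands. S1pr3, a receptor of sphingosine 1-phosphate, had control signals of 1938, 3431 and 1459 without and 2619, 5268 and 1521 with treatment. In knockout cells it went from 2184, 2146 and 1719 to 747, 1020 and 398. S1pr3 fell 2.94-fold in knockout cells, against a control response of 0.37 that did not pass, and the difference was -1.93 ± 0.39 (SE, 3 dates). Every control pair was higher with treatment and every knockout pair lower. Ffar2, a receptor of short-chain fatty acids, showed the same pattern, with control signals of 2187, 2633 and 2297, then 3657, 3288 and 2872, and knockout signals of 1853, 1840 and 2200, then 1217, 398 and 710. Vdr, the vitamin D receptor, had a difference of -1.40 ± 0.34. Pkib, an inhibitor of protein kinase A, went from 884, 249 and 1561 to 205, 107 and 411 in knockout cells, with a difference of -1.98 ± 0.39. Kmo, an enzyme of tryptophan breakdown, and Muc13, a cell-surface mucin, had differences of -1.52 and -1.35 with similar values on every date. Bcl2, which blocks cell death, fell in both genotypes, by 1.10 and 1.87, at a difference of -0.77 ± 0.28 and date values of -0.81, -0.84 and -0.67.

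The third class held responses of like size in both genotypes within a stated margin. A response was called kept where both genotypes passed in 1 direction and the 95% interval of the difference lay within 1 log2 unit (2-fold) of 0. This held for 197 genes, 99 rises and 98 falls, of which 105 moved by at least 1 log2 unit in both genotypes. It held for the probe set that stood for each gene. These genes had 186 other probe sets past the filter. Of those sets, 160 had both responses in the same direction, but only 39 had an interval inside the margin. Over all genes, responding or not, 29.6% had an interval inside the margin. Of the 589 genes past the threshold in both genotypes, 367 had an interval that held 0 but crossed a margin, so they could be placed neither as kept nor as different. The interval excluded 0 in 25, with the larger response in the knockout in 18. The kept count rested on the settings: without date 2 it was 374, of which 103 were also among the 197.

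**Figure D4:**
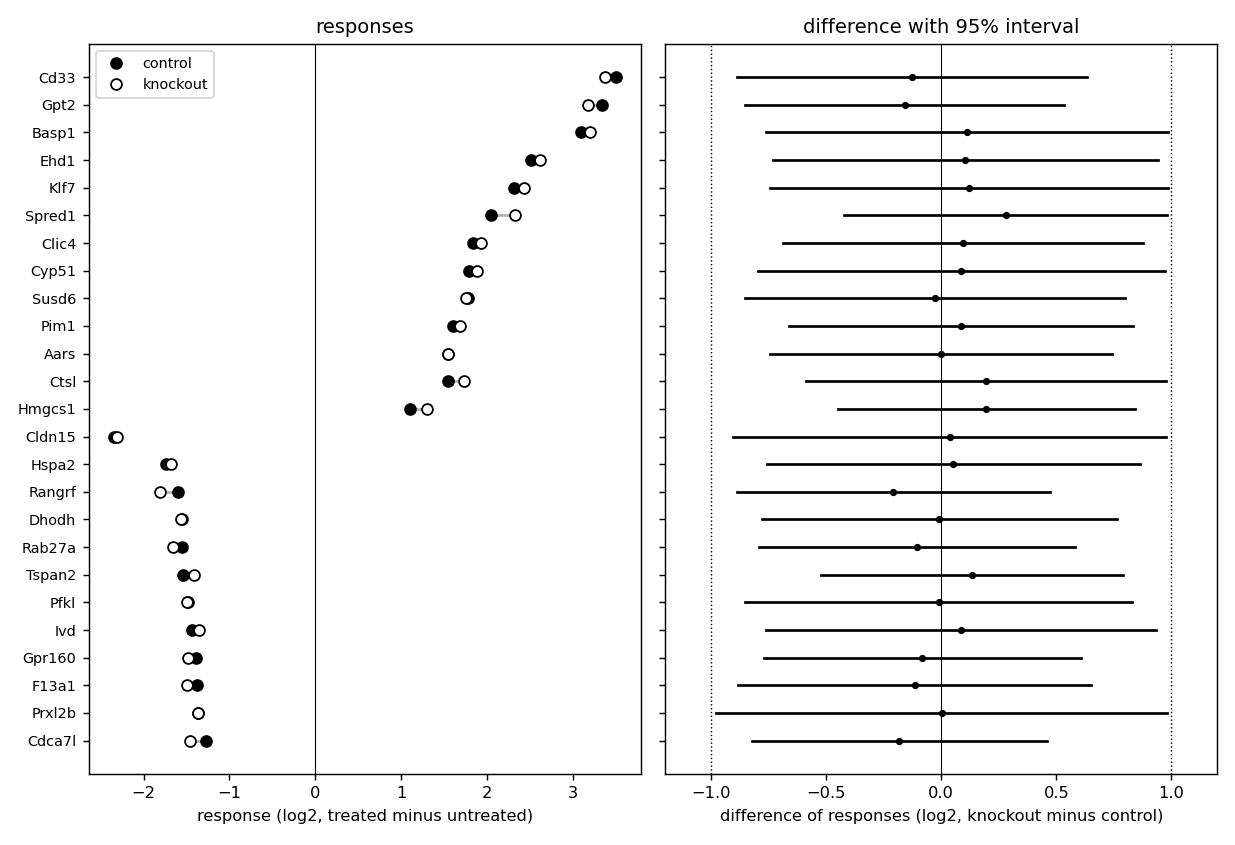
Control and knockout responses (left, log2) and the difference with its 95% interval (right) for the 25 named kept genes, with dotted lines at the margin of 1 log2 unit. Cd33 and Gpt2 have the largest responses, and every interval lies inside the margin, as the definition required.

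Pim1, a survival kinase often listed as a STAT5 target, was among the kept rises. Its control signals were 4023, 3925 and 6040 without and 14146, 12954 and 14479 with treatment, and its knockout signals 2827, 2185 and 5031 without and 9920, 9336 and 11211 with treatment. Pim1 rose 3.02-fold in control and 3.21-fold in knockout cells, with a difference of 0.09 and a 95% interval from -0.66 to 0.84. A dimmer probe set gave a difference of -0.32 ± 0.87, which could not place it. Spred1, a brake on Ras signalling, rose by 2.04 and 2.32, with an interval from -0.42 to 0.98. Cd33, a myeloid sialic acid receptor, had control signals of 100, 249 and 137 without and 1402, 2178 and 2066 with treatment. Its knockout signals were 99.2, 130 and 167, then 1112, 1595 and 1760. It rose 11.3-fold and 10.4-fold, and the genotypes overlapped at both states. Without date 2 the interval of its difference, from -1.03 to 0.22, crossed the margin.

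Kept genes of metabolism were found among rises and falls. Gpt2, a mitochondrial alanine transaminase, rose 10.1-fold in control and 9.05-fold in knockout cells. Without date 2 the interval of its difference, from -1.09 to 0.55, crossed the margin. Aars, the alanyl-tRNA synthetase, rose by 1.54 in both, with an interval from -0.74 to 0.74. Cyp51 and Hmgcs1, enzymes of cholesterol synthesis, rose by 1.79 and 1.11 in control and 1.88 and 1.30 in knockout cells. The interval of Cyp51 also crossed the margin without date 2, from -1.3 to 0.75. Dhodh, of pyrimidine synthesis, fell by 1.55 and 1.56, and Pfkl, a phosphofructokinase of glycolysis, by 1.48 and 1.49. The protease Ctsl rose by 1.54 and 1.73 on the set that stood for it, while another, dimmer set had responses of -0.68 and -0.15 that did not pass. F13a1, a clotting factor subunit of monocytes, fell by 1.38 and 1.50, and Rab27a, which moves granules, by 1.55 and 1.65.

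Many of the strongest responses passed in both genotypes with intervals too wide to be called kept. Of the panel of 66 genes named for their roles, 62 passed the filter, 28 passed in both genotypes in 1 direction, and 3 of these were kept. Over all 11815 genes, 589 passed in both genotypes in 1 direction and 197 were kept. The panel was chosen with earlier results of these data known, so nothing is read from its counts. Acod1, which makes itaconate, rose by 7.30 in control and 8.54 in knockout cells, with an interval of the difference from -0.90 to 3.39. Emp1, a membrane protein, rose by 7.83 and 6.58 (-3.33 to 0.82), the lipase Lpl by 5.31 and 5.11 (-1.59 to 1.18) and the transporter Slc7a11 by 4.34 and 5.10 (-0.31 to 1.82). Cdkn1a, the cell cycle inhibitor p21, rose by 3.51 and 3.58, and its interval from -0.94 to 1.09 missed the margin narrowly. Csf2rb, the shared beta chain of the GM-CSF receptor, rose by 1.66 and 1.51 (-1.02 to 0.72). The heat shock gene Hspa1a fell by 4.14 and 4.02 (-0.85 to 1.10). These rises and falls were present without Stat5, and their sizes could not be compared more closely than the intervals.

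Gene lists for known pathways were described by counts and medians beside all genes, whose median difference was 0.03. Of all genes, 1.31% lay below and 1.15% above 0 at an unadjusted p under 0.05, and without date 2 these were 163 and 235 genes of 11815. In each list 0 genes passed for the difference by limma. Of 32 tested STAT5 and cytokine feedback targets, 6 lay below 0 at an unadjusted p under 0.05 (Cish, Il2ra, Id1, Myc, Bcl2l1 and Bcl2) and 2 above (Bcl6 and Fos), at a list median of -0.12. Without date 2 the counts were 2 and 2, and Il2ra, the IL-2 receptor alpha chain, went from -1.80 to -0.36. Bcl2l1, which encodes the survival protein BCL-XL, rose by 1.51 in control cells and had a knockout response of 0.73 that did not pass, with an unadjusted p of the difference of 0.0514 without date 2. Myc, a growth regulator, had a difference of -1.03 ± 0.46 (SE, 3 dates) with neither response past the threshold, and of -0.66 without date 2 (unadjusted p 0.0506). The Stat and Jak genes had 10 tested with 0 below and 0 above, at a median of 0.17.

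Of 4 lists of inflammatory genes, those of interferon, NF-kB and cytokine genes lay above 0 at the median on every date, and the chemokine list did not. Lists of other kinds did so too, among them Stat and Jak, survival, monocyte, myeloid transcription factor and secondary granule genes. Immediate early and heat shock genes had date medians of 0.42, 0.47 and 0.48. Of their 32 tested, 1 lay below (1.31% of all genes) and 3 above 0 (1.15%) at an unadjusted p under 0.05. Without date 2 these were 1 and 4. Chemokine and chemokine receptor genes had a median of 0.28 over 21 tested but date medians of -0.16, -0.05 and -0.14, and -0.15 without date 2. The list had 2 below 0 at an unadjusted p under 0.05 (1.31% of all genes), Cxcr2 and Ccl6, and 2 above (1.15%), Ccrl2 and Cx3cr1. Interferon response genes had a median difference of 0.89 over 39 tested, at 0.43, 1.74 and 0.59 by date, and 0.34 without date 2, with 0 past an unadjusted p of 0.05 in either direction. Markers of some other cell types moved on date 2 too. The median difference on that date was 1.16 over 9 of 15 erythroid, 1.17 over 4 of 9 eosinophil and 0.83 over 13 of 17 megakaryocyte genes. It was 0.47 for B lineage and 0.43 for mast cell and basophil markers. T and NK lineage markers lay at 0.05 and those of stroma and endothelium at -0.37. The summed erythroid signal ran from 4386 to 7442 in control untreated, 4857 to 12963 in control treated, 3554 to 5508 in knockout untreated and 3805 to 7916 in knockout treated arrays. The eosinophil sums were 845 to 2724, 451 to 1314, 808 to 3155 and 413 to 1572 in the same order, and the megakaryocyte sums 14365 to 23098, 16714 to 23624, 14299 to 20271 and 16828 to 27647. Their part in the interferon values was not tested. Rsad2, an antiviral enzyme, varied between dates. Its treated signals were 19065, 860 and 2591 in control and 19346, 10831 and 5192 in knockout cells, so the genotypes were level on date 1, farthest apart on date 2 and apart to a lesser degree on date 3. Without treatment its estimate was 1.39-fold lower in knockout cells, which also enters the difference of responses. That difference was 2.03 with and 0.98 without date 2. NF-kB and feedback genes had a median of 0.66 over 21 tested, with 2 above 0 at an unadjusted p under 0.05 (Birc3 and Traf1; 1.15% of all genes). Treatment raised 6 of them in control (4.21% of all genes) and 14 in knockout cells (6.73%). Without date 2 the median was 0.36, and 1 lay above 0 at that p, the kinase Ikbke. Inflammatory cytokine and enzyme genes had 0.62 over 18 tested, with 3 above 0 (Il15, Ptgs2 and Tnfsf9; 1.15% of all genes), and 0.65 without date 2, where Il15 and Ptgs2 had an unadjusted p of 0.112 and 0.0897. Tnf itself had a difference of 0.98 ± 0.84 and Il1b of -1.47 ± 1.38, both with intervals across 0.

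Amino acid response genes had 45 tested, with 22 raised in control (4.21% of all genes) and 25 in knockout cells (6.73%), 6 kept (197 of 11815 over all genes), and a median difference of -0.02. The cholesterol synthesis list had 28 tested, with 7 raised in control and 9 in knockout cells, 3 kept, and a median of 0.15. Of 85 cell cycle genes tested, 42 had an interval inside the margin (29.6% of all genes), at a median of 0.02. Ribosome biogenesis and growth genes had a median of -0.36 over 58 tested, with 5 below 0 at an unadjusted p under 0.05 (Srm, Gnl3, Nolc1, Myc and Wdr43; 1.31% of all genes). Treatment lowered 1 of them in control (2.56% of all genes) and 10 in knockout cells (4.45%). The date medians were -0.15, -0.78 and -0.28, and without date 2 the list had 0 below 0 at that p. Srm, the spermidine synthase, fell by 1.46 in knockout cells with a control response of -0.32 that did not pass.

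Secondary and tertiary granule genes, which mark maturing neutrophils, showed how far 1 date could set a median. Their median difference was 0.62 over 32 tested, at 0.13 and 0.04 on dates 1 and 3 and 1.62 on date 2. Camp, an antimicrobial peptide of these granules, had a difference of 4.01 on date 2 against -0.11 and -0.06 on the others. Its date 2 signals were 5909 and 740 in control and 1950 and 4009 in knockout cells, untreated then treated. Primary granule genes had a median of 0.01 over 16 tested, and Mpo a difference of -0.29 ± 0.35 (SE, 3 dates). The part that the mix of cells on date 2 has in these values was not tested.

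**Figure D5:**
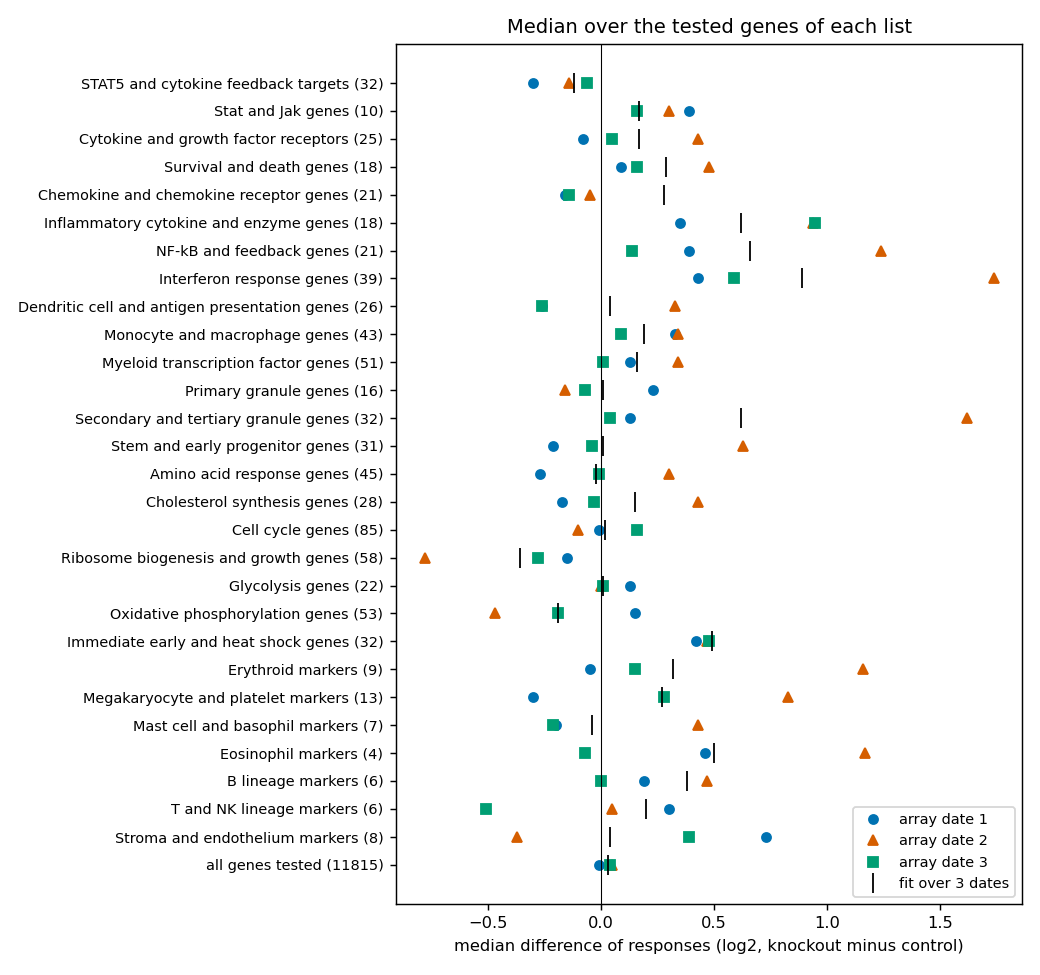
Median difference of responses (horizontal axis, log2, knockout minus control) over the tested genes of each list, by array date and over the 3 dates, with the number tested in brackets. The interferon, NF-kB and secondary granule lists lie farthest above 0 on date 2 among the pathway lists, and the median of all genes lies near 0 on every date.

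The promoter motif was counted in each class as a description. Of the 42 rises that were smaller without Stat5, 32 had a promoter in the RefSeq table, and 5 of these (15.6%) held TTCNNNGAA in at least 1 window. For the 56 rises that were larger the count was 3 of 44 (6.82%), for the 43 larger falls 5 of 37 (13.5%), for the 10 smaller falls 1 of 6 (16.7%) and for the 197 kept genes 16 of 162 (9.88%). Among all tested genes with a promoter it was 803 of 9623 (8.34%). Windows with 2 or more matches in these classes were those of Cish and Bcl6. Of the 128 genes named by rule, 98 had a promoter in the set kept for printing, and those without include Socs2, Hbegf and Hmox1. Promoters of 1 chromosome were left out of that set but not out of the class counts, so 98 is not a count of all matches.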

How the data were processed

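Total RNA of 12 samples was labelled with biotin and hybridised to single-colour mouse expression arrays, per the labels. The authors deposited a linear intensity per probe set (45101 in all). MAS5 produced it, per the submitters' processing notes. Its version and settings are not given in the sources used here. Trimmed by 2% at either end, the array means were 500.003 to 500.004, so the deposited intensity values were already scaled. Array number limits the precision.

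Probe sets with 1 gene symbol in the platform annotation (34945) were used, and sets brighter than 70.5 (the overall median) on at least 3 arrays were tested. The set with the highest mean stood for a gene, which left 11815 genes from 21363 probe sets. Values were log2(intensity + 13), so changes of dim genes are understated. The model, fitted in limma 3.58.1 (R 4.3.3), had the 4 groups and a block for array date (6 residual and 3.96 prior degrees of freedom), with Benjamini-Hochberg adjustment over all genes and a threshold of 0.05. An interval is 95%. Fits were checked on simulated data. Plots used matplotlib 3.10.9 (Python 3.11.15).

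Dates come from the sample titles. Deviations from the group means correlated at 0.357 to 0.753 over the 18 pairs of arrays of 1 date. Over the 36 pairs of different dates and groups they correlated at -0.661 to 0.399. Both ranges overlap, and deviations cancel within a group, so values between dates are not independent of those within dates. The dates, with 1 array of every group on each, were taken to pair the arrays.

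Named genes were Cish, Socs2, Cx3cr1, Batf3, a panel of 66 genes, and of each class the 12 largest rises and falls with 1 sign on all 3 dates. Because no gene passed for the difference, the smaller and larger classes use an unadjusted p under 0.05, a rule chosen after seeing the data. List members with such a p were named after their values were seen. The members and gene lists were chosen with earlier results of these data known.

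Alternatives tried were no replicate block, constants of 1 and 50, other filters, quantile normalization, array quality weights, another variance moderation, 1 value a date, other margins and intervals, every probe set, and leaving out each array or date. Promoters are from RefSeq (GRCm38.p6), and 27025 symbols had at least 1. No genome was used.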

Additional observations from a re-analysis of the deposited data

Results flagged for a closer look

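In 7 of the 128 named genes, all 3 control responses had 1 sign and all 3 knockout responses the other, against 116 of all 11815 genes (0.982%). Many named genes were picked for a large difference of 1 sign, so the counts are not comparable. The difference of responses was -3.14 for E330020D12Rik, -1.93 for S1pr3, -1.92 for Ffar2, -1.73 for Elovl7, -1.40 for Vdr and -1.30 for Dcaf1, each with the control higher and the knockout lower after treatment. It was 1.79 for Trav9d-3, a T cell receptor segment, with the control lower and the knockout higher. The test of the difference itself (limma, adjusted over 11815 genes) passed for none of them, with a smallest adjusted p of 0.858. With array quality weights, the 1 gene past the threshold among all genes was Cish.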

How the results depend on the processing

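The count of genes past the threshold for the difference of responses was 0 under every alternative but array quality weights, which gave 1, a smaller response without Stat5 (Cish); larger responses stayed at 0 under all. The count of kept responses was 339 with a constant of 50, 69 with no filter, 988 with array quality weights (193 shared with the 197), 302 with trended and robust moderation, 51 with the margin set by the control response, and 0, 374 and 0 without array dates 1, 2 and 3. Without the replicate block of array dates, the control response had 165 genes and the knockout response 293, the untreated comparison 1 and the treated comparison 1. With no filter these responses had 443 and 797, with array quality weights 2388 and 2293, without date 1 80 and 230, and without date 3 40 and 113. The treated comparison had 2 genes with a constant of 1, 4 with no filter, 6 after quantile normalization, 27 with array quality weights and 0 without date 1 or date 3. The untreated comparison had 0 with a constant of 1 and without date 1 or date 3. Leaving out 1 array gave 0 to 0 genes for the difference, 237 to 1038 for the control response, 470 to 1754 for the knockout response, 0 to 2 untreated, 0 to 11 treated and 18 to 190 kept, with 0 to 0 smaller and 0 to 0 larger. Leaving out arrays or dates leaves fewer samples to the fit; other causes were not tested.

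Other probe sets reversed the direction in 6 cases: Bace1 in control cells (0.12), Ctsl in control (-0.68) and knockout cells (-0.15), and Pde4b in control cells (0.50 and 1.38) and in knockout cells (2.40, where the reported -0.28 had not passed). Of the differences of named genes, 3059 values under the alternatives kept their side of the threshold and 1 did not (Cish with array quality weights). Dim probe sets, near the constant of 13, limit the folds of Batf3, Rasgrp3 and Hmox1.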
